A study of Drosophila melanogaster with 2 samples.

Results

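The 10 genes described here encode the ecdysone receptor, its partner, transcription factors induced by the hormone and related nuclear receptors of Drosophila melanogaster: EcR, usp, Eip74EF, Eip75B, br, Eip78C, Hr4, ftz-f1, Eip93F and Hr38. They were chosen by gene name, with the counts of binding sites in the same peak lists already known, so the counts, densities and signal ranks below are a description and no test was run on them. For each gene every summit, the point of highest signal in a peak, was taken from 2000 bp before to 2000 bp after the gene body. The 10 windows covered 642 kb, or 0.480% of the 6 chromosome arms with peaks, and held 30 of the 3396 summits (0.883%) of the thresholded list. They held 285 of the 30000 pooled relaxed summits.

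The protein mapped was CG17568, a predicted zinc finger protein, by chromatin immunoprecipitation and sequencing in whole embryos of strain CG17568-GFP. The line stably carries CG17568 fused at its C terminus to GFP, and embryos of both sexes were collected from 0 to 20 h. There is 1 group with 2 biological replicates and no other condition, and the labels do not give the promoter or cells that express the fusion. The free text of both samples names them as input while the assay title and antibody field name a transcription factor immunoprecipitation, and the values hold only if the latter is right. An embryo collection of this span mixes stages and all tissues, so a site used in few cells cannot be told apart from one used weakly in many.

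Ecdysone is the steroid hormone that times moulting and metamorphosis in insects. It acts through a heterodimer of the nuclear receptors EcR and Ultraspiracle, which binds DNA and switches on a first set of genes, named for the polytene chromosome puffs that they form. The products of these early genes, among them E74, E75 and Broad, then regulate later genes in a cascade that also contains Hr3, Hr4, E78 and FTZ-F1. The embryo has its own ecdysone pulse, which is needed for the movements of mid-embryogenesis, and most of these genes are also used at that time.

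Short stretches under some of the strongest summits are shown first, because the results below refer back to them. Each covers the summit and 50 bp on either side, on the plus strand of the dm6 genome, read from the RefSeq copy of Release 6. All lie outside annotated UTRs, and all are among the 3 strongest such summits of their gene. Capitals mark matches to a searched motif and runs of at least 11 letters, with at least 4 of G or C, that recur under another of the 30 summits.
Hr4, chrX:1951852-1951952, the strongest summit of all 10 genes: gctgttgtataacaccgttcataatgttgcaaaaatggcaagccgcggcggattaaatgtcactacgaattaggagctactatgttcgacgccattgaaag
Hr4, chrX:1947674-1947774: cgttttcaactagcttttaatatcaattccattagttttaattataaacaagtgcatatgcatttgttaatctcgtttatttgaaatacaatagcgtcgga
Hr4, chrX:1963887-1963987: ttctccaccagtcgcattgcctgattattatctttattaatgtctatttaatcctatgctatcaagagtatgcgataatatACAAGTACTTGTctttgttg
Eip74EF, chr3L:17567038-17567138: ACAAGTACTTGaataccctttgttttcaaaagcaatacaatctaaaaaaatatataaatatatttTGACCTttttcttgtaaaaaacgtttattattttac
Eip75B, chr3L:18019771-18019871: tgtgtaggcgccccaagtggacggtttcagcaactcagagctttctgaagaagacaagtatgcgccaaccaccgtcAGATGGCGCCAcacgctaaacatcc
Eip75B, chr3L:17988285-17988385: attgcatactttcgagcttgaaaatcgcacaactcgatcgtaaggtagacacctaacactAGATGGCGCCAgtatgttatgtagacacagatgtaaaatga
ftz-f1, chr3L:18769468-18769568: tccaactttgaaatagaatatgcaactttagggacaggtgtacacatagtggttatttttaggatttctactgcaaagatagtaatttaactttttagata

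The 4 peak lists analysed were the authors' list thresholded on the irreproducible discovery rate (IDR), called the IDR list below, and 3 relaxed lists of 30000 peaks each, from the pooled reads and from each replicate. The IDR list consisted of the 3396 pooled peaks of highest signal, all of which had an identical peak in the pooled relaxed list. Signal is the authors' peak score, with no stated scale, and ranged from 127 to 3472 with a median of 188 in the IDR list. It is used here only to rank peaks within a list, with rank 1 the strongest. No list gives counts of reads, so the depth behind a peak is unknown.

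Binding was concentrated on a few of the 10 genes. Eip75B and Hr4 each had 10 IDR summits, ftz-f1 had 5, EcR and Eip74EF each had 2, and usp had 1. The other 4 genes, br, Eip78C, Eip93F and Hr38, had 0. Thus 6 of 10 genes had an IDR summit in the window, against a background of 20.8% of all 13945 protein-coding genes. Long genes hold more summits, and 9 of the 10 genes are longer than 30 kb. Of these 9, 5 (55.6%) had an IDR summit, beside 55.8% of the 663 protein-coding genes of that length, so the share of bound genes was that of long genes in general. At 5 or more IDR summits stood 3 of the 9 (33.3%), beside 12.8% of long genes.

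**Figure D1:**
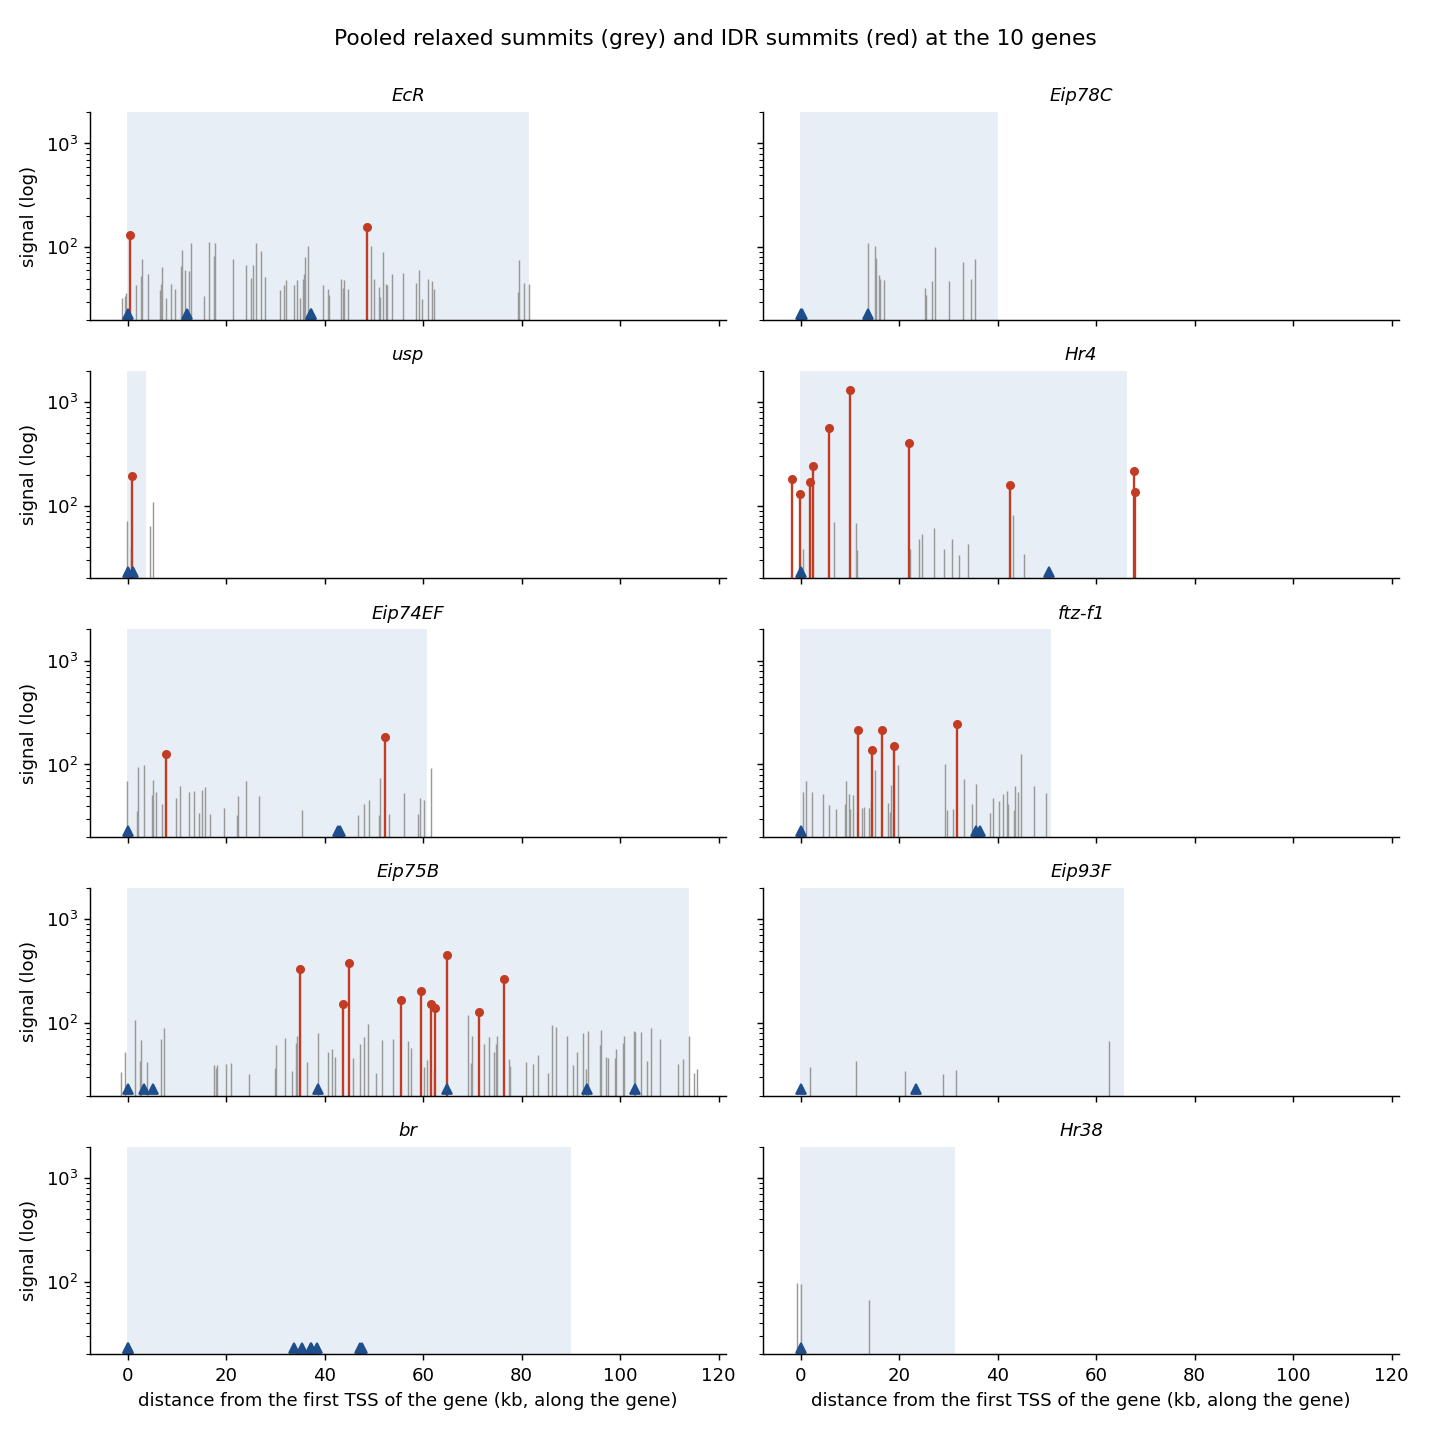
Each panel plots the signal (log axis) of the summits in 1 gene window against the distance in kb from the first TSS, along the direction of transcription, with the gene body shaded and annotated TSSs as triangles. IDR summits are red and the other pooled relaxed summits grey; the 10 IDR summits of Eip75B lie in the middle of the gene, 4 of the 10 of Hr4 lie outside the gene body, and the br panel is empty.

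Per length, the range was wide. Hr4 had 1.43 IDR summits per 10 kb of window, ftz-f1 0.914, Eip75B 0.849, Eip74EF 0.309 and EcR 0.235, beside a median of 0.145 and a 90th percentile of 0.827 over the 663 long genes. Only 11 long genes were denser than Hr4, 54 were denser than ftz-f1 and 63 were denser than Eip75B. The value of Hr4 includes 4 summits outside the gene body, 3 of them nearest to the starts of other genes. In the gene bodies alone Hr4 had 6 summits, or 0.909 per 10 kb, beside 0.986 for ftz-f1 and 0.879 for Eip75B, and 55, 41 and 58 long genes were denser. The value of usp, 1.33 per 10 kb, comes from a single summit in a window of 7.51 kb. Over the 10 windows together the density was 0.467 per 10 kb, beside 0.254 over the 6 arms. The relaxed summits were denser there as well, at 4.44 per 10 kb beside 2.24.

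The hormone receptor genes EcR and usp carried 3 IDR summits between them, none among the strongest. EcR (FBgn0000546, 2R, 6087873 to 6169087, minus strand) encodes the subunit that binds ecdysone. Its stronger summit, at 6120422 with signal 158, held rank 2300 in the IDR list, rank 3817 in replicate 1 and rank 1775 in replicate 2. It lay in an intron of all 6 annotated transcripts, 11419 bp downstream of the TSS of EcR-RG. The other, at 6168561 with signal 130 and rank 3252, lay 526 bp downstream of the most distal TSS, in intron 1 of EcR-RA. It ranked 9591 in replicate 1, and the nearest summit of replicate 2, at rank 4011, was 116 bp away, which makes it the 1 IDR summit of the 30 without a counterpart within 100 bp in both replicates. Neither was among the 3396 strongest peaks of replicate 1, and the one at 6120422 was among those of replicate 2. The window held 1 summit of each of these 2 replicate lists.

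EcR was rich in weak summits. Its window held 67 pooled relaxed summits, 54 of replicate 1 and 59 of replicate 2, a pooled density of 7.86 per 10 kb, and 643 of 663 long genes had fewer per length. Of the 67, 2 (2.99%) reached the IDR list, beside 11.3% of the whole relaxed list, and 15 (22.4%) had a counterpart in both replicates, beside 43.6%. The gene also hosts tRNA genes, and 14 of them overlap the window. Within 500 bp of a tRNA gene start lay 12 of the 67 relaxed summits and 0 of the 2 IDR summits.

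The gene of the receptor partner, usp (FBgn0003964, X, 2038798 to 2042311, minus strand), encodes the fly counterpart of the vertebrate retinoid X receptor. Its single IDR summit at 2041422 lay 110 bp upstream of the TSS of usp-RA and in intron 2 of usp-RB. It had signal 192 and rank 1636, rank 2824 in replicate 1 and rank 1516 in replicate 2, with offsets of 8 and 6 bp. The gene lies inside Actn, the alpha-actinin gene, on the same strand and from the same start at 2042311, so the summit is also within Actn. All 5 pooled relaxed summits of the usp window had counterparts in both replicates.

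Among the early genes, Eip75B, a nuclear receptor that binds heme and is related to vertebrate REV-ERB, was the most heavily bound. The gene (FBgn0000568, 3L, 17950953 to 18064696, minus strand) spans 114 kb with 7 transcripts from 7 TSSs. Its 10 IDR summits lay between 34.9 and 76.4 kb from the first TSS, a span of 41.5 kb or 35.2% of the window, with a median gap of 3.94 kb. The strongest, at 17999799 with signal 453 and rank 327, lay 22 bp downstream of the TSS of Eip75B-RC, in its 5' UTR. It ranked 554 in replicate 1 and 236 in replicate 2. The other 9 were intronic. The next by signal were at 18019821 (signal 379, rank 469), 18029809 (332, rank 599), 17988335 (266, rank 915) and 18005235 (203, rank 1493).

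Of these 10 summits, 9 fell into a single interval of 65.2 kb, which is intron 1 of Eip75B-RB and intron 3 of Eip75B-RE. That interval had 1.38 IDR summits per 10 kb. The Eip75B-RC and Eip75B-RG starts lie within it, at 64.9 and 38.7 kb from the first TSS. An IDR summit was found within 500 bp of 1 of the 7 TSSs, and a pooled relaxed summit near 5 of 7. At the Eip75B-RG start the nearest relaxed summit was 24 bp upstream at rank 7196, and the nearest IDR summit 3777 bp upstream. The TSSs of Eip75B-RF, Eip75B-RE and Eip75B-RB, at the 5' end of the gene, were 34887, 31644 and 29789 bp from the nearest IDR summit. All 10 had counterparts in both replicates within 100 bp. Of the 10, 7 were among the 3396 strongest peaks of both, while the summits at 17993459, 18002298 and 18021018 ranked 5081, 4231 and 3944 in replicate 2.

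Eip74EF (FBgn0000567, 3L, 17558672 to 17619325, minus strand) encodes an ETS-domain activator. It had 2 IDR summits 44.4 kb apart, both in introns and both far from a start. The stronger, at 17567088 with signal 184 and rank 1770, lay 9232 bp downstream of the TSS of Eip74EF-RD and ranked 1816 in replicate 1 and 2146 in replicate 2. The weaker, at 17611512 with signal 127 and rank 3377, was the weakest of the 30, and it ranked 3070 in replicate 1 and 5172 in replicate 2. The nearest IDR summit to the distal Eip74EF start lay 5875 bp upstream, outside the window, at 17625200.

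br, the Broad-Complex gene, encodes BTB zinc finger factors of the early response, and it stood at the other extreme. The window of 93.7 kb (FBgn0283451, X, gene body 1575132 to 1664869, plus strand, 9 TSSs) held 0 pooled relaxed summits. Each replicate list held 1, at 1595885 in replicate 1 (rank 15746) and at 1595978 in replicate 2 (rank 11863). These lie within 100 bp of each other and so count as 1 shared site, which the pooled list lacks. The gene lay inside a stretch of 510 kb without a pooled relaxed summit, from 1313191 to 1823279, in which 48 protein-coding genes lie. The list had 6 longer gaps, all within 2.85 Mb of the centromeric end of their arm, whereas this one ended 21.7 Mb from that end of X. The median gap between neighbouring relaxed summits was 1.22 kb. Of the 663 long genes, 47 had 0 pooled relaxed summits, br among them. The cause of the gap was not tested.

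**Figure D2:**
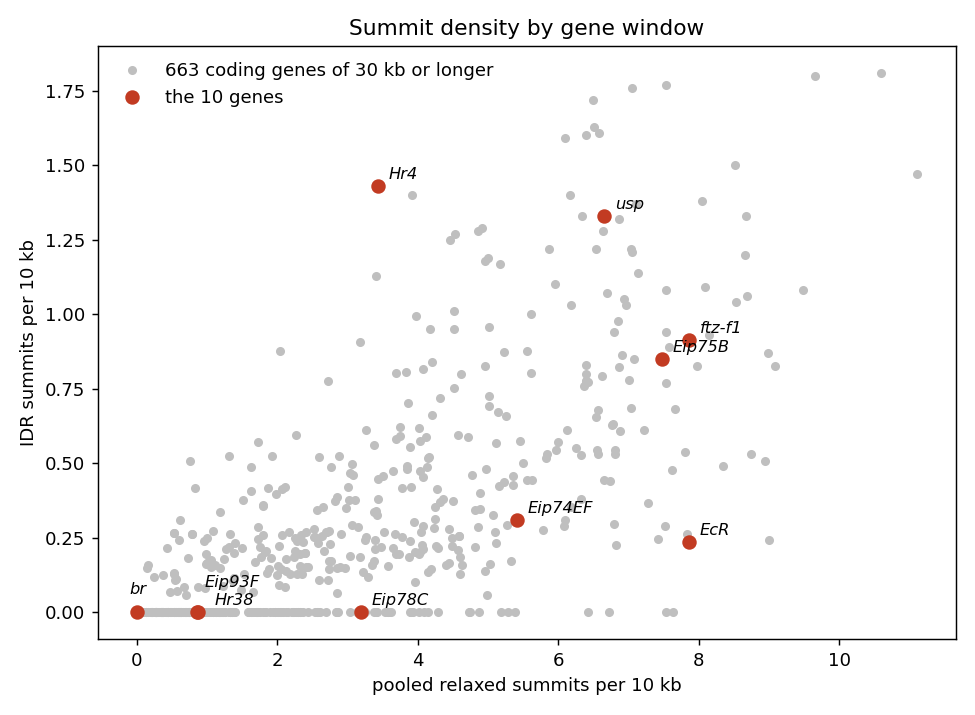
IDR summits per 10 kb (y axis) against pooled relaxed summits per 10 kb (x axis), each point a gene window, with the 663 protein-coding genes of 30 kb or longer in grey and the 10 genes in red. Hr4 sits at 1.43 and 3.43, EcR at 0.235 and 7.86, and br, Eip93F, Eip78C and Hr38 on the line of 0 IDR summits.

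Of the nuclear receptor genes that follow the first set, Hr4 (FBgn0264562, X, 1941940 to 2007956, plus strand) had the strongest site of the 10 genes. Hr4 is an orphan receptor related to vertebrate GCNF and acts between the early genes and ftz-f1. Its highest summit, at 1951902, had signal 1310 and rank 27 of the IDR list, rank 23 in replicate 1 and rank 35 in replicate 2. It lay 9962 bp downstream of the distal TSS, in intron 2 of Hr4-RC. The next were at 1947724 (signal 560, rank 203, replicate ranks 215 and 211), 1963937 (402, rank 421, replicate ranks 460 and 496), 1944399 (244, rank 1055) and 2009588 (215, rank 1351). Intron 2 of Hr4-RC, 10.4 kb long, held 4 of the 10, or 3.85 IDR summits per 10 kb.

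Of the 24 pooled relaxed summits of Hr4, 10 (41.7%) were in the IDR list, beside 11.4% for Eip75B, 11.6% for ftz-f1, 5.71% for Eip74EF and 2.99% for EcR. Among the 227 long genes with at least 20 relaxed summits the median share was 9.30% and the 90th percentile 19.6%, and Hr4 had the highest. Part of its count belongs to the edges of the window, with 4 of the 10 summits outside the gene body and 6 inside it. The summit at 1940196 lay 111 bp upstream of CG3587, that at 2009588 lay 224 bp upstream of PIG-K, an enzyme subunit gene of GPI anchoring, and that at 2009816 lay 141 bp upstream of lncRNA:CR45478. Only the one at 1941752 (signal 130, rank 3251) lay at the Hr4 promoter itself, 188 bp upstream of the TSS that 7 of 9 transcripts share. The TSS of Hr4-RE and Hr4-RF lay 5098 bp from the nearest pooled relaxed summit, 4889 bp from the nearest of replicate 1 and 3107 bp from the nearest of replicate 2.

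Eip78C, a receptor related to Eip75B, had no site above the threshold. Its 14 pooled relaxed summits (FBgn0004865, 3L, 21226609 to 21266503, plus strand) began at rank 4303 with signal 110, at 21240320, which was 27 bp upstream of the internal TSS of Eip78C-RB. That summit had a counterpart at rank 4227 in replicate 2 and, 104 bp away, at rank 3708 in replicate 1. The summits next in signal lay at 21241702 (rank 4858) and 21253906 (rank 4948). No relaxed summit lay within 500 bp of the 2 upstream starts.

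ftz-f1 (FBgn0001078, 3L, 18750607 to 18801309, minus strand) encodes the nuclear receptor of the NR5A class that acts with Fushi tarazu in the early embryo and confers competence to respond to later ecdysone pulses. All of its 5 IDR summits lay in 1 intron, intron 2 of ftz-f1-RB, which is 33.7 kb long and had 1.48 IDR summits per 10 kb. The strongest, at 18769518 with signal 245 and rank 1050, ranked 1343 in replicate 1 and 1064 in replicate 2. It was 3774 bp upstream of the internal TSS shared by ftz-f1-RC and ftz-f1-RD. The other 4, at 18789787 (signal 217, rank 1318), 18784763 (215, rank 1338), 18782293 (151, rank 2497) and 18786829 (137, rank 2968), formed a group between 11.5 and 19.0 kb from the distal TSS. These 4 also lie in the long non-coding RNA gene lncRNA:CR45939 on the same strand. None of the 3 TSSs of ftz-f1 had an IDR summit within 500 bp, and the relaxed summit nearest to the internal start, 22 bp upstream, ranked 10346.

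The remaining genes had few sites of any strength. Eip93F (FBgn0264490, 3R, 21949114 to 22014539, plus strand) encodes a factor that directs the late phase of metamorphosis. In its window of 69.4 kb lay 6 pooled relaxed summits, 5 of replicate 1 and 5 of replicate 2. The strongest had signal 67.0 at rank 9725, lay at 22011792 in the 3' UTR, and was the 1 of the 6 with counterparts in both replicates. Hr38 (FBgn0014859, 2L, 20683462 to 20714588, minus strand), the fly NR4A receptor and an alternative partner of Ultraspiracle, had 3 pooled relaxed summits, and all of them had counterparts in both replicates. Those at 20715262 (signal 97.1, rank 5263) and 20714603 (94.9, rank 5495) lay 674 and 15 bp upstream of its only TSS. The latter ranked 29548 in replicate 1 and 5024 in replicate 2. At most 1 pooled relaxed summit per 10 kb was found for 3 of the 9 long members, br, Eip93F and Hr38 (33.3%), beside 31.8% of the 663 long genes.

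The 30 IDR summits were mostly intronic and away from promoters. In introns lay 25 of 30 (83.3%, exact Clopper-Pearson 95% interval 65.3 to 94.4), beside 54.7% of the whole IDR list, and 4 (13.3%) were intergenic, beside 27.8%. Within 500 bp of any annotated TSS lay 6 of 30 (20.0%, 7.71 to 38.6), beside 42.6% of the list. When the TSSs of the 10 genes alone were counted, 3 of 30 remained, at Eip75B-RC, usp-RA and the distal Hr4 start. Farther than 5000 bp from any TSS lay 16 (53.3%, 34.3 to 71.7), beside 15.8%. Most of the 10 genes are long, and in the windows of the other 654 protein-coding genes of 30 kb or longer the 1042 IDR summits were intronic in 77.5% and intergenic in 10.2%. Of these, 29.9% lay within 500 bp of a TSS and 26.1% farther than 5000 bp. The share beyond 5000 bp differed most from that of other long genes. Its 16 summits were 6 of Eip75B, 4 of ftz-f1, 3 of Hr4, 2 of Eip74EF and 1 of EcR. The intervals cannot decide whether the shares differ, because the genes were chosen with their counts known. No test was run. Summits of 1 gene share an intron or domain, and the intervals cover counting error only.

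**Figure D3:**
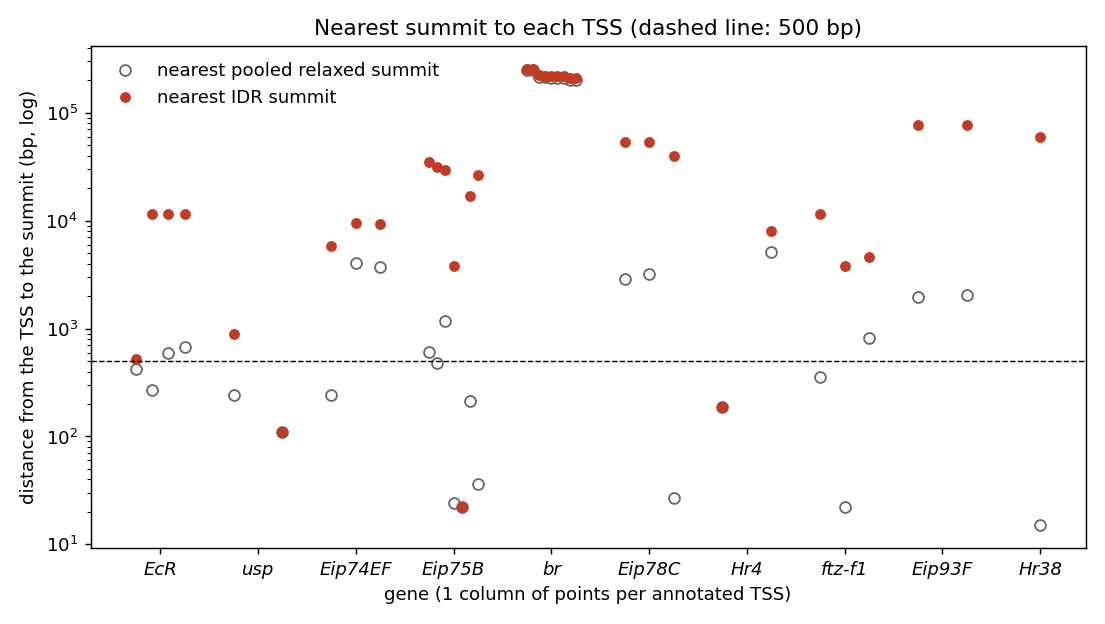
For each annotated TSS of the 10 genes, the distance in bp (log axis) to the nearest IDR summit (red) and to the nearest pooled relaxed summit (open circles), with a dashed line at 500 bp. An IDR summit lay below the line at 3 of 36 TSSs and a relaxed summit at 15 of 36. The same shares over all annotated TSSs were not computed. The br start nearest to a relaxed summit was 200547 bp from it.

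By start site, an IDR summit lay within 500 bp of 3 of the 36 TSSs, a pooled relaxed summit within 500 bp of 15, one of replicate 1 at 16 and one of replicate 2 at 15. Of the 36, 9 are br starts inside the single stretch of 510 kb without a pooled relaxed summit. The same shares over all annotated TSSs were not computed, so these counts cannot show whether the genes differ from others. The TSSs with a relaxed summit only included 1 each of Hr38, Eip78C and Eip74EF and 2 each of EcR and ftz-f1.

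The share of sites recovered in both replicates was close to that of the whole list, with no test run. Within 100 bp, 29 of 30 (96.7%, 82.8 to 99.9) had a summit in both relaxed replicate lists, beside 94.5% of all IDR summits, with a median offset of 11.5 bp over 60 comparisons. Among the 3396 strongest peaks of both replicates were 19 of 30 (63.3%, 43.9 to 80.1), beside 66.5%. The IDR list was taken from the pooled reads of these replicates, so this recovery is not an independent check. By signal the 30 were ordinary for the list. Their median rank was 1812 of 3396 and their median signal 182 beside 188, 14 were among the strongest 1698 and 6 had a rank of 599 or better. Those 6 were 3 of Hr4 and 3 of Eip75B. The weakest members inside the threshold were at Eip74EF (signal 127, rank 3377), Eip75B (128, rank 3320) and EcR (130, rank 3252), and the strongest left outside were at ftz-f1 (126, rank 3460), Eip75B (120, rank 3720) and EcR (112, rank 4155).

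**Figure D4:**
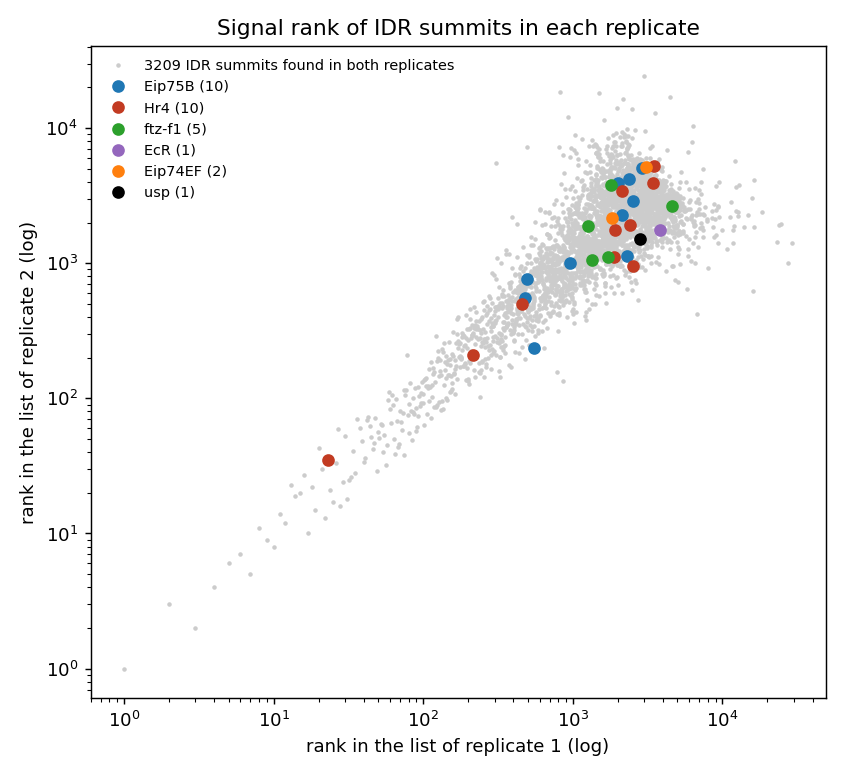
Rank in the relaxed list of replicate 1 (x axis) against that of replicate 2 (y axis), both log, for the 3209 IDR summits found in both replicates (grey) and the 29 of the members (coloured by gene). The Hr4 summit at ranks 23 and 35 stands apart, and the EcR and usp points lie at ranks 3817 and 1775 and at ranks 2824 and 1516.

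Matches to the sites that the encoded receptors are known to bind were rare under the 30 summits and rare in the whole IDR list as well. With sites this rare, so few matches do not set the 30 apart from the list. Motifs were sought on both strands within 50 bp of each summit. The letters AGGTCA, the core recognised by most nuclear receptors, were found at 1 of 30 (3.33%), the Eip74EF summit at 17567088 shown above, beside 1.59% of all IDR and 1.95% of pooled relaxed summits. The FTZ-F1 site CAAGGTCA, which holds that core, was at 0 of 30, beside 0.147% of IDR summits. The ecdysone response element, an inverted repeat of AGGTCA with 1 base between, was found with up to 3 mismatches at 1 of 30, the Eip75B summit at 18029809, beside 1.41%. The ETS site CCGGAAGT, the Zelda site CAGGTAG, the E-box CAGCTG and the element TATCGATA were each at 0 of 30, beside 0.265%, 0.648%, 4.15% and 0.471% of IDR summits.

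Simple repeats were found at shares near those of the lists. GAGAG, which GAGA factor binds, was at 3 of 30, all in Eip75B, a lower share than the 406 of 3396 IDR summits and the 11.5% of pooled relaxed summits. Runs of AAAAAAAA were at 4 of 30 (13.3%), beside 7.89% of IDR and 11.2% of pooled relaxed summits. Enrichment of 8-mers at all IDR summits over sequence 300 bp to either side was ranked among those at 1.0% or more of summits. The first was TAGGTAAA (1.15% of summits, 0.221% of flanks, odds ratio 5.14), and it was at 0 of 30. The other enriched 8-mers were not counted at the 30. GC content was 34.7% in the median of the 30 and 33.7% in all IDR summits. It differed between members, from 20.8% at both Eip74EF summits to 54.5% at the Eip75B summits at 18019821 and 18029809.

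A comparison of the 30 windows with each other, added after the sequences had been seen, found recurrent runs. The Eip75B summits at 17988335 and 18019821, at IDR ranks 915 and 469 and both shown above, share AGATGGCGCCA, which holds the core of the motif known for the insulator protein CTCF (searched for as AGATGGC, in a further form as AGAGGGC, in another as AGGTGGC, and in the last as AGGGGGC). That run was at 8 of all 3396 IDR summits (0.236%) and 22 of the pooled relaxed summits (0.0733%). The CTCF core alone was at these 2 of 30 (6.67%), beside 2.94% of IDR summits and 2.78% of relaxed summits. The Eip74EF summit at 17567088 and the Hr4 summit at 1963937 share the letters ACAAGTACTTG, found at 3 summits of the IDR list (0.0883%) and 3 of the pooled relaxed list (0.0100%). Matches are letters in a window and do not show which protein was bound.

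Other genes of the pathway were taken from 3 lists of 60 symbols, of which 58 matched the annotation. Of 14 other nuclear receptor genes, 5 (35.7%) had an IDR summit in the same kind of window, beside 20.8% of all protein-coding genes. They were led by Hr3 (4 summits, highest signal 690), a receptor of the ecdysone cascade that Eip75B is known to repress, Hr51 (2, 330), Hr78 (1, 284) and Hnf4 (5, 277), a regulator of lipid metabolism. Those with 0 included svp, tll, kni, knrl and eg. Of 15 genes listed under ecdysone synthesis, uptake and turnover, 2 (13.3%) had one, the ecdysone importer gene Oatp74D (2, 424) and Kr-h1 (2, 196). The highest summit in the Oatp74D window lies inside another gene, CG6333, 1524 bp upstream of Oatp74D. The enzymes of synthesis spo, spok, nvd, sro, dib, sad and shd had 0.

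Most of the 29 induced and coregulator genes are shorter than 30 kb. Of the 29, 17 (58.6%) had an IDR summit, beside 20.8% of all protein-coding genes and 55.8% of those of 30 kb or longer. They were led by cbt (3, 1915), a transcription factor gene whose highest summit lies inside its neighbour ush, 1396 bp upstream of cbt, then the transporter gene E23 (2, 900), the juvenile hormone receptor gene gce (1, 513) and Ldh (1, 486), known as ImpL3. Over the 58 genes, 24 (41.4%) had an IDR summit in the window, beside the same 20.8% of all genes. In the gene bodies alone the count was 18, so part of the 24 had a summit only in the flanks. In the windows of Hr51, ImpE3, Met and Dronc, too, the highest summit lay inside other genes. The share is therefore one of windows and not of binding to the pathway genes themselves. The density over the 58 genes was 0.492 per 10 kb, beside 0.467 over the 10 members and 0.254 over the 6 arms. The lists were written with earlier results of these data known, so their shares are a description. They differ in gene length, which was not matched, and no test was run.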

How the data were processed

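Chromatin immunoprecipitation peaks of CG17568-GFP embryos were analysed from 4 peak lists on dm6. Per the deposited text with the lists, peaks of either replicate and of the pooled reads were called by the authors in narrowPeak format, and the IDR list was made from these 3. For the aligner, the peak caller and the threshold on IDR, the sources used here name none. The deposited score of a peak (its signal value) was used for ranks only, and the deposited −log10 q-value was not used for any result. The summit was the peak start plus the deposited offset, given 1-based.

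Summits were placed on the BDGP6.54 genes of Ensembl 115, leaving out transposable elements, and sequences were read from RefSeq Release 6, the same assembly. A summit in several features was given 1 of them, with UTRs and coding sequence before other exons, and exons before introns. Summits within 100 bp counted as shared. Placement and motif search were tested on simulated data. The members, gene lists, motifs and comparisons were chosen with earlier results of these data known. Named were all 10 members, up to 5 summits of each by signal and any others singled out, and up to 4 genes of each pathway list by signal. Python 3.11.15, numpy 2.4.6, pandas 2.3.3, scipy 1.17.1 and matplotlib 3.10.9 were used. Densities of single gene bodies and the feature shares of other long genes were added after the results had been seen. The bar of 30 kb for long genes also differs from the written plan, which named a shorter length. The alternatives tried were other windows, matching distances, TSS distances, a stricter threshold and each replicate alone. P-values were not computed, and the 2 replicates have no control group in these files.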

Additional observations from a re-analysis of the deposited data

How the results depend on the processing

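The total of 30 IDR summits was 26 in the gene bodies alone and 30 with 5000 bp on each side, and it ranged from 24 to 31 with the strongest peaks of 1 replicate alone (0.374 to 0.483 per 10 kb). The number of genes with a summit stayed at 6 under each of these 4 settings. With only the strongest 1698 IDR peaks the total was 14 summits, 0.218 per 10 kb, in 4 genes, since EcR and Eip74EF had 0. That setting removes peaks by construction. The count of pathway genes with an IDR summit, 24, was 18 in the gene bodies alone and 30 with 5000 bp on each side. It was 19 with only the strongest 1698 IDR peaks. The share of summits found in both replicates, 96.7%, was 76.7% within 50 bp, 100% within 200 bp, 100% within 500 bp, 63.3% among the strongest 3396 peaks of each replicate and 100% for the strongest 1698 IDR peaks. The share within 500 bp of a TSS ranged from 16.1% to 20.8% over single replicates. Of 50 member counts recomputed, 42 stayed within 1.5 times the reported one and 8 did not, among them Hr4 with 6 in the gene body. The 42 include every count of br, Eip78C, Eip93F and Hr38, which was 0 throughout. In the gene body alone or with the strongest 1698 IDR peaks, a count of 0 could not change. No paired analysis was possible because the labels give 1 group. Without read counts, the effect of depth on weak summits could not be measured.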
